A study of Homo sapiens with 6 samples.

Results

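The insulin-like growth factor (IGF) axis was examined in BEAS-2B cells through 10 genes chosen by symbol, of 35019 Ensembl identifiers in the deposited expression table. They are the binding protein genes IGFBP2, IGFBP3, IGFBP4, IGFBP6 and IGFBP7, the receptor genes IGF1R, IGF2R and INSR, and the adaptor genes IRS1 and IRS2. All 10 passed the filter on low values and are among the 14188 genes tested. BEAS-2B is an established line derived from human bronchial epithelium. All cells received RSL3 at 2 µM for 24 h. RSL3 is an inhibitor of the lipid peroxidase GPX4 and starts ferroptosis. One group of 3 libraries had RSL3 alone. The other group of 3 libraries (RSL3+ID) was also given indirubin, a kinase inhibitor, from 2 h before RSL3. The labels give indirubin only as a range, 7.5 to 30 µM. Neither untreated cells nor cells with indirubin alone were analysed here, so the response to RSL3 and an action of indirubin of its own cannot be told apart. The culture medium held 10% fetal bovine serum, which supplies growth factors from outside the cells. Separate cultures within a group are not stated, so p-values rest on a spread that may be technical.

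IGF1 and IGF2 are secreted growth factors that activate IGF1R, a receptor tyrosine kinase closely related to the insulin receptor INSR. Active receptors phosphorylate the adaptors IRS1 and IRS2, which recruit PI3K and so switch on AKT and mTOR and keep FOXO transcription factors out of the nucleus. Binding proteins hold IGFs outside the cell, prolong their life and limit their access to receptors, and IGF2R, which is also the mannose 6-phosphate receptor, takes IGF2 to lysosomes without signalling through a kinase. In epithelia this axis supports growth and survival.

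The libraries held between 15206183 and 18506637 reads on listed genes. A count of 0 allows up to 3 reads, which is 0.162 to 0.197 CPM (counts per 1e6 reads) at these depths, for counting error only. Epithelial keratin genes were present, with KRT8 between 1008 and 1523 CPM and KRT18 between 296 and 565 CPM. The basal keratin gene KRT5 had at most 0.327, CDH1 (E-cadherin) at most 2.30 and EPCAM at most 3.62 CPM, while the mesenchymal gene VIM had between 293 and 573. Leukocyte markers PTPRC, CD68 and CD3E had at most 0.436 CPM. At an adjusted p under 0.05, limma called 153 genes higher and 118 genes lower in RSL3+ID. Higher genes were 56.5% of these, a share that was 29.3% when libraries were scaled to their total count and 73.7% when they were scaled to their upper quartile.

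The receptor and adaptor paralogs were set side by side. IGF1R, the main IGF receptor, and IRS1, an adaptor it shares with INSR, were lower in RSL3+ID in each library than in any RSL3 library, while INSR differed little in its mean. Neither IGF1R nor IRS1 passed in limma over all genes, and 12.6% of all tested genes were lower without overlap in the same way. The proximal promoters of the receptor pair and of the adaptor pair are shown because the fold change estimates differed within each pair. Whether the changes themselves differ was not established, and a link to the promoter sequences was not tested. The sequences are the 250 bases before the annotated start in RefSeq (GRCh38.p14), 5′ to 3′ on the gene's strand, with capitals marking GC boxes. For INSR, IRS1 and IRS2 that start lies upstream of the gene interval given below, so their windows do not adjoin it. The distance is largest for INSR, whose interval ends at 7294034. A GC box, the letters GGGCGG on either strand with overlaps counted, is the motif that SP1-family factors bind.
IGF1R, chr15:98648289-98648538, plus strand: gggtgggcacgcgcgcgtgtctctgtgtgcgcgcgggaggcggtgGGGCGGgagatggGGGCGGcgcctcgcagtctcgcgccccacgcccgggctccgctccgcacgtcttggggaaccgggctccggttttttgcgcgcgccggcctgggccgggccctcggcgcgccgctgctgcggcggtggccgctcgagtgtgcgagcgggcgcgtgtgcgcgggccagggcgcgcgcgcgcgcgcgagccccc
INSR, chr19:7294415-7294664, minus strand: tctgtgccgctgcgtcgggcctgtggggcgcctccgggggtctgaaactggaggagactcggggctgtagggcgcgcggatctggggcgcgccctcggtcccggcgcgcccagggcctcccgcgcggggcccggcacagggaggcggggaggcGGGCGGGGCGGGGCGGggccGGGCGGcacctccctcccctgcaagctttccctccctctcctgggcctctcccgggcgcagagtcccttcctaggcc
IRS1, chr2:226799821-226800070, minus strand: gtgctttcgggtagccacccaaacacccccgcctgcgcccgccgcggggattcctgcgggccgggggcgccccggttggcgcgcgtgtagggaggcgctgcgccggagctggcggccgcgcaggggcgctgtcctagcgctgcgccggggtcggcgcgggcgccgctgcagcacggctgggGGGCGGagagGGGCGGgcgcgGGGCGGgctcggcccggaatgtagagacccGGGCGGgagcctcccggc
IRS2, chr13:109786584-109786833, minus strand: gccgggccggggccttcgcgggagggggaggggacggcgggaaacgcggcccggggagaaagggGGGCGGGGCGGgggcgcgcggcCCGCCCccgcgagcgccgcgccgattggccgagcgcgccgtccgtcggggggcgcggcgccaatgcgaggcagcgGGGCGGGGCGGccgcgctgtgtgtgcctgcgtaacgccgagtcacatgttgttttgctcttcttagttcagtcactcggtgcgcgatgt

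The 4 windows are rich in G and C, with 81.2% for IGF1R, 78.4% for INSR, 80.8% for IRS1 and 76.4% for IRS2. The IGF1R window held 2 GC boxes, those of INSR and IRS1 4 each and that of IRS2 5. Of 35116 RefSeq promoter windows of the same length, 42.6% held at least 1. No window held the TATA box TATAAA (10.7% of all windows), the forkhead core TGTTTAC (2.98%) or the E-box CACGTG (6.34%), each searched on both strands. The insulin response element TGTTTTG, which FOXO factors bind in the IRS2 promoter, was searched for after the sequences were seen. It occurred 1 time in the IRS2 window and in none of the other windows printed, against 4.30% of all windows.

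Levels of different genes were compared per length, as CPM per kilobase of exon. The binding protein genes IGFBP7 and IGFBP3 stood highest. In the RSL3 group IGFBP7 had 138 ± 27.6 and IGFBP3 105 ± 11.8 (mean ± SD, n = 3, as for every mean here), and the libraries of this pair overlapped. Per kilobase of the longest transcript their order turned, with means of 186 for IGFBP7 and 199 for IGFBP3. IRS2 followed at 60.8 ± 6.21, then IGFBP6 at 43.3 ± 7.85 and IGFBP4 at 27.2 ± 1.91. IGF2R had 12.8 ± 0.681, IGFBP2 6.94 ± 1.08 and IGF1R 3.83 ± 0.662. INSR and IRS1 were lowest, at 1.55 ± 0.125 and 1.55 ± 0.227, and their libraries overlapped. All other neighbours in this order were separate in the RSL3 libraries. With RSL3+ID the libraries of IRS2 and IGFBP6, of IGF2R and IGFBP2, and of IGF1R and INSR also overlapped. The means of IRS2 and IGFBP6 changed order there, at 41.4 ± 12.6 and 53.5 ± 7.44. INSR and IRS1, which could not be ordered with RSL3 alone, were separate with RSL3+ID, at 1.55 ± 0.379 and 0.771 ± 0.157.

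**Figure D1:**
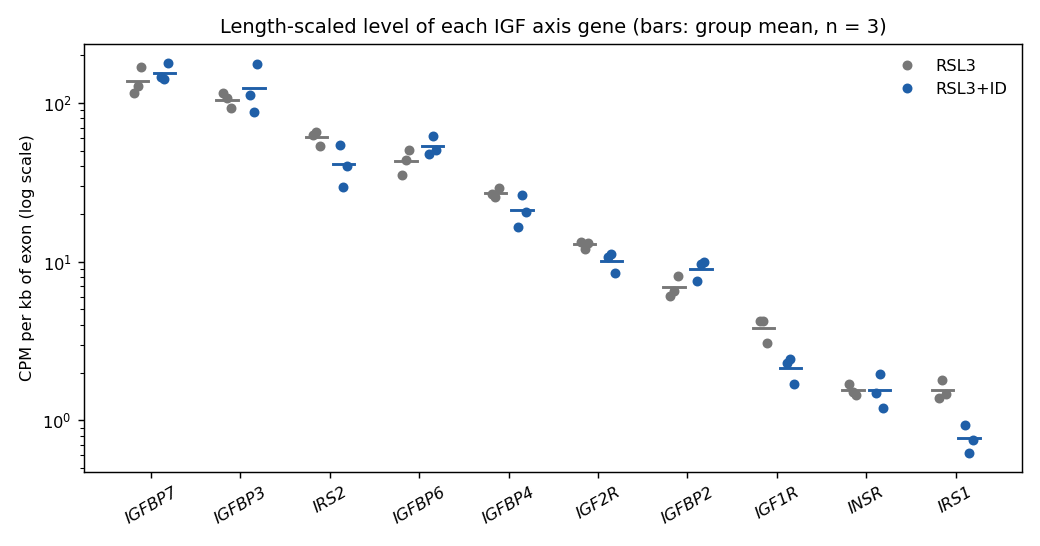
CPM per kilobase of exon (log scale) for each gene, with a point per library and a bar at the group mean (n = 3 per group). IGFBP7 and IGFBP3 stood highest, and IRS1 in RSL3+ID was lowest, at a mean of 0.771.

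Among the receptors, IGF1R differed most. This gene (ENSG00000140443, chromosome 15, 98648539 to 98964530, GRCh38) had 939, 927 and 675 normalised counts in RSL3 libraries 1 to 3 and 541, 544 and 422 in RSL3+ID libraries 1 to 3. Every RSL3+ID library was below every RSL3 library. The mean went from 847 ± 149 to 502 ± 69.7, a log2 fold change of −0.75 (SE 0.19, 95% interval −1.15 to −0.34), or 1.68-fold lower. In limma this did not pass over all genes, with an adjusted p of 0.0647. In the authors' deposited table IGF1R passed, with a log2 fold change of −0.75, an SE of 0.21 and an adjusted p of 0.00904. Without RSL3+ID library 2 it passed in limma too (log2 fold change −0.81, adjusted p = 0.00801), in a setting that called 9.34% of tested genes. With the filter at a mean of 1 it passed as well (adjusted p = 0.0472), where 1.87% of the genes tested were called. Other settings weakened it. The adjusted p in limma was 0.187 without the trended and robust step and 0.176 with same-numbered libraries as blocks.

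INSR (ENSG00000171105, chromosome 19, 7112255 to 7294034) is the paralog that binds insulin. It had 282, 249 and 237 normalised counts with RSL3 and 265, 324 and 222 with RSL3+ID, and the groups overlapped fully. Its log2 fold change was 0.06 (SE 0.21, 95% interval −0.39 to 0.52, adjusted p = 0.896 in limma), and its sign turned with scaling to the total count and without RSL3+ID library 2. The interval leaves room for a change in either direction. The ratio of IGF1R to INSR per length does not depend on how a library is scaled. It was 2.49, 2.79 and 2.13 with RSL3 and 1.53, 1.26 and 1.42 with RSL3+ID. The groups of ratios did not overlap, with means of 2.47 ± 0.330 and 1.40 ± 0.136 (difference −0.81 on the log2 scale). A 2-sided exact permutation test gave p = 0.1, the smallest that 3 against 3 libraries allow, and 0.1 after adjustment over the 2 ratios tested.

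IGF2R (ENSG00000197081, chromosome 6, 159969099 to 160113507), the clearance receptor, had 3819, 3381 and 3695 normalised counts with RSL3 and 3262, 3158 and 2698 with RSL3+ID. The groups did not overlap, but the log2 fold change was small, −0.26 with an SE of 0.14 (adjusted p = 0.324 in limma).

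Both adaptor genes had lower means in RSL3+ID, on very different levels. IRS1 (ENSG00000169047, chromosome 2, 226731317 to 226799759) had 219.8, 282 and 229 normalised counts with RSL3 and 158, 99.1 and 133 with RSL3+ID. The groups did not overlap. The mean went from 244 ± 33.5 to 130.1 ± 29.7, a log2 fold change of −0.92 (SE 0.25, 95% interval −1.45 to −0.38), or 1.89-fold lower. It was −0.58 on the scale of the deposited values, where that of IGF1R was −0.63. Its adjusted p in limma was 0.0769, and 3.16% of all tested genes had a lower estimate. In the authors' deposited table it passed, with a log2 fold change of −0.91, an SE of 0.27 and an adjusted p of 0.0211.

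IRS2 (ENSG00000185950, chromosome 13, 109752698 to 109786568), whose transcription FOXO factors are known to induce, was far more abundant. It shares 115 bp of exon with an antisense gene. It had 8267, 8362 and 6908 normalised counts with RSL3 and 7546, 3845 and 5782 with RSL3+ID. RSL3+ID library 1 lay within the RSL3 range and library 2 lay lowest. The log2 fold change was −0.50 (SE 0.21, adjusted p = 0.208 in limma). Leaving out RSL3+ID library 2 gave −0.24 and leaving out library 1 of that group −0.73. The ratio of IRS1 to IRS2 per length was 0.0217, 0.0276 and 0.0271 with RSL3 and 0.0172, 0.0211 and 0.0188 with RSL3+ID. These groups of ratios were separate (means 0.0255 ± 0.00325 and 0.0190 ± 0.00197, exact permutation p = 0.1, also 0.1 adjusted over both ratios).

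**Figure D2:**
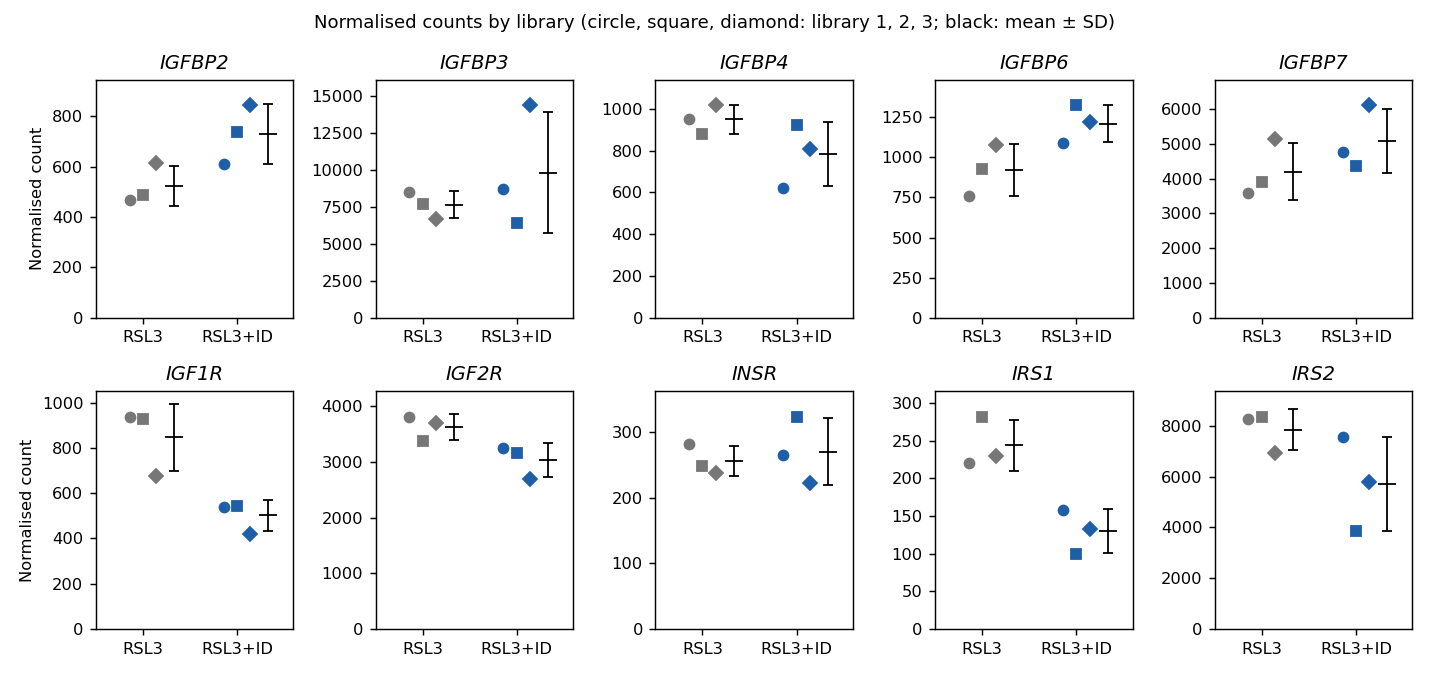
Normalised counts of each gene in every library (circle, square and diamond for libraries 1, 2 and 3), with the mean ± SD of each group of 3 in black and axes from 0. IGF1R, IGF2R and IRS1 were lower and IGFBP6 higher in all RSL3+ID libraries, while IGFBP3 was set apart by RSL3+ID library 3 at 14366.

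The binding protein genes had mostly positive estimates, with 4 positive and 1 negative and a median log2 fold change of 0.29. Over all tested genes 48.5% were positive and the median was −0.02. The median is the estimate of IGFBP3, and without RSL3+ID library 3 it was 0.14, with 3 positive and 2 negative. None passed in limma or was listed as changed in the authors' deposited table. IGFBP6 (ENSG00000167779, chromosome 12, 53097436 to 53102345), which prefers IGF2 over IGF1, had 758, 931 and 1078 normalised counts with RSL3 and 1089.8, 1326 and 1219.8 with RSL3+ID. The groups did not overlap, by a narrow margin (log2 fold change 0.40, SE 0.17, adjusted p = 0.214 in limma). IGFBP2 (ENSG00000115457, chromosome 2, 216632828 to 216664436), a binding protein that also carries an integrin-binding motif, had 468, 489 and 614 with RSL3 and 609, 736 and 844 with RSL3+ID. Only RSL3 library 3 and RSL3+ID library 1 overlapped. Its estimate was 0.48 on the log2 scale (SE 0.18, 95% interval 0.08 to 0.88, adjusted p = 0.188 in limma).

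IGFBP3 (ENSG00000146674, chromosome 7, 45912245 to 45921874), the main IGF carrier of serum, had 8503, 7696 and 6680.2 normalised counts with RSL3 and 8667, 6375 and 14366 with RSL3+ID. One library set the difference: RSL3+ID library 3 was high and library 2 was the lowest of all 6. The log2 fold change was 0.29 (SE 0.23, adjusted p = 0.539 in limma). Leaving out RSL3+ID library 3 gave −0.03 and leaving out library 2 gave 0.56. IGFBP7 (ENSG00000163453, chromosome 4, 57030773 to 57110385), a related secreted protein that binds IGFs weakly, had 3581, 3893 and 5138 with RSL3 and 4759, 4377 and 6114 with RSL3+ID. Its groups overlapped through RSL3 library 3 (log2 fold change 0.28, SE 0.17, adjusted p = 0.404 in limma). Dropping library 3 of RSL3+ID gave 0.14, and dropping library 3 of RSL3 gave 0.43. IGFBP7 shares 270 bp, or 14.0% of its exon length, with POLR2B and 94 bp with IGFBP7-AS1, both on the opposite strand, and without a stated strand setting such reads cannot be told apart.

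IGFBP4 (ENSG00000141753, chromosome 17, 40443461 to 40457731), an inhibitory binding protein that the protease PAPPA cleaves, was the exception among the 5. It had 949, 881 and 1017 normalised counts with RSL3 and 619, 921 and 807 with RSL3+ID. RSL3+ID library 2 lay within the RSL3 range (log2 fold change −0.30, SE 0.18, adjusted p = 0.381 in limma), and the estimate was −0.14 without RSL3+ID library 1. Summed over the 5 binding protein genes, CPM was 889, 884 and 920.1 with RSL3 and 928, 863 and 1311 with RSL3+ID. IGFBP3 and IGFBP7 gave between 78.3% and 87.7% of these reads, so the sum followed RSL3+ID library 3.

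Of the 10 genes none passed in limma at an adjusted p under 0.05, against 1.91% of all tested genes, and none passed with limma-voom on the recovered reads. At an unadjusted p under 0.05 there were 5, namely IGFBP2, IGFBP6, IGF1R, IRS1 and IRS2, where 19.3% of all tested genes were. The authors' deposited table listed 2 of the 10, IGF1R and IRS1, both lower. That table lists 895 genes, 7.19% of the 12446 that its p-values and adjusted p-values together imply were tested, and 3.46% were lower. Groups did not overlap with RSL3+ID lower for 3 of the 10 genes, against 12.6% of all tested genes, and with RSL3+ID higher for 1, against 12.8%. The 10 genes had 5 positive and 5 negative estimates with a median of −0.10. All 10 are annotated as protein-coding genes whose intervals cover exons, introns and untranslated regions.

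**Figure D3:**
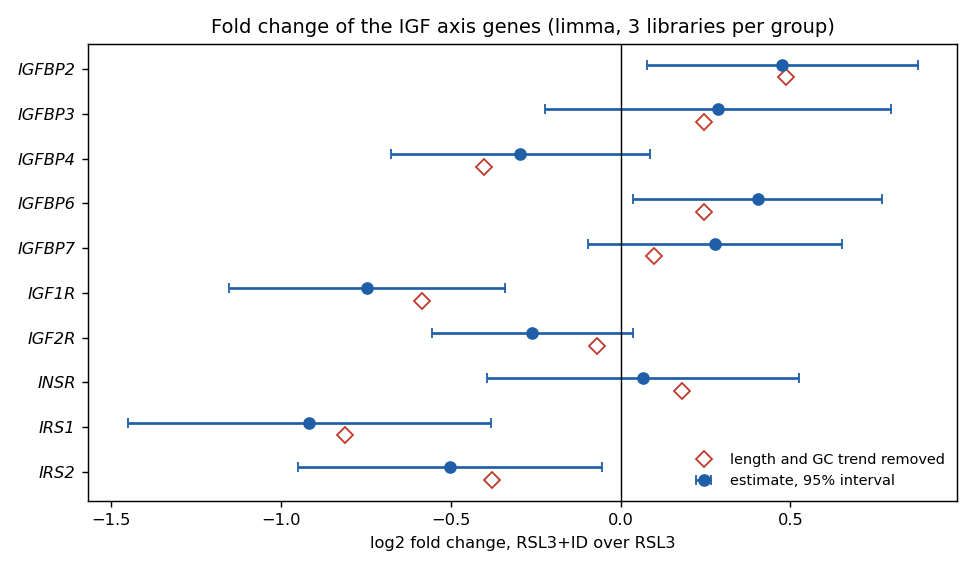
log2 fold change of RSL3+ID over RSL3 for each gene with its 95% interval from limma (filled circles, 3 libraries per group), and the estimate after each library was freed of its trend with exon length and GC content (open diamonds). Intervals of IGF1R, IRS1 and IRS2 lay below 0 and those of IGFBP2 and IGFBP6 above it, before adjustment over genes.

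Receptor and adaptor genes are long and binding protein genes shorter. Log2 fold change fell weakly with exon length in these libraries (Spearman correlation −0.26 over 14188 tested genes). The exon length was between 8138 bp (IRS2) and 17843 bp (IGF2R) for the receptors and adaptors and between 1346 bp (IGFBP6) and 4767 bp (IGFBP2) for the binding proteins. Over all tested genes the median log2 fold change was 0.17 in the 2838 genes with the shortest exons and −0.17 in the 2838 genes with the longest, each 20% of the genes. Of 2937 tested genes with at least 8000 bp of exon, 68.0% had a negative estimate. Each library was then freed of its trend with exon length and GC content. The log2 fold change became −0.58 for IGF1R, −0.81 for IRS1 and −0.38 for IRS2. It became −0.07 for IGF2R, 0.10 for IGFBP7, 0.25 for IGFBP6 and 0.25 for IGFBP3. All of these were nearer to 0 than before. Farther from 0 were −0.40 for IGFBP4, 0.18 for INSR and, by little, 0.49 for IGFBP2. Adjusted p-values of IGF1R and IRS1 were then 0.0910 and 0.0857 in limma. Length and GC content were removed together, and whether either caused the differences was not tested.

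**Figure D4:**
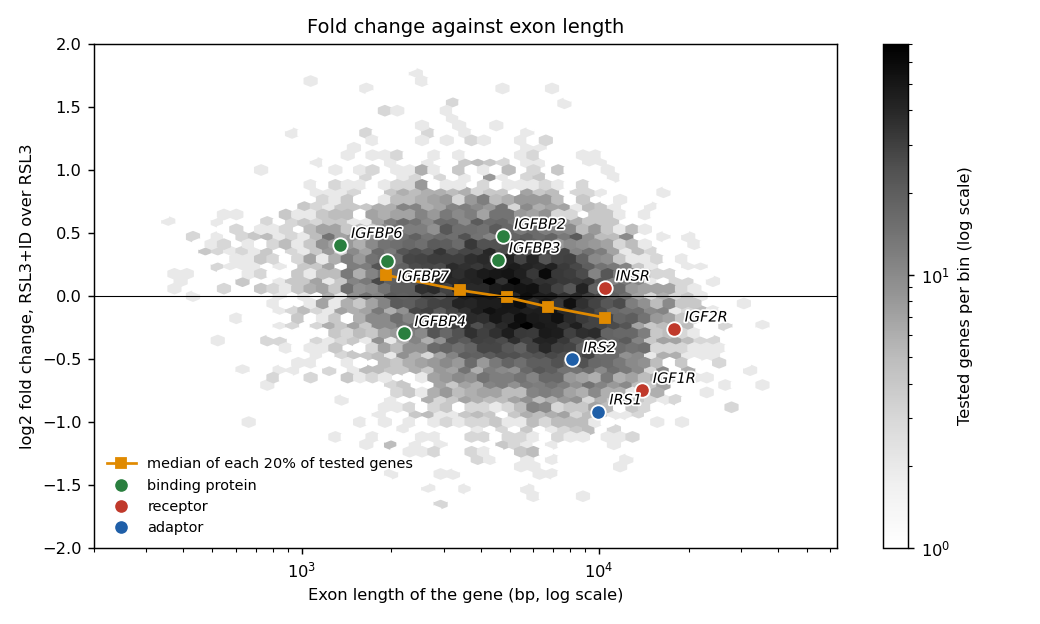
log2 fold change of RSL3+ID over RSL3 against exon length (log scale), with grey bins for all tested genes, squares for the median of each 20% of genes by length, and coloured points for the 10 genes by role. 70 of 14188 genes lie outside the axes. The medians ran from 0.17 to −0.17, and IGF1R and IRS1 lay below the median of the longest genes.

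The ligands themselves were scarce. IGF1 had between 0 and 10.6 normalised counts, below the filter, and INS (insulin) had 0 reads in all 6 libraries. IGF2 had 56.3, 173.5 and 27.9 with RSL3 and 171.1, 46.6 and 65.5 with RSL3+ID. Libraries of 1 group thus differed more than the groups did (log2 fold change 0.30, SE 0.60, adjusted p = 0.826 in limma). IGFBP5 had at most 41.2 normalised counts (log2 fold change 0.76, SE 0.66, adjusted p = 0.573).

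Of 97 genes in 7 lists of other pathway genes, 86 were tested, 1 was lower and none higher in limma over all genes, where 0.832% of all tested genes were lower and 1.08% higher. At an unadjusted p under 0.05 there were 22, or 25.6%, against 19.3% of all tested genes, and 64.0% had a negative estimate against 51.5%. Without overlap between the groups, 20 were lower and 4 higher, 23.3% and 4.65% of the 86 against 12.6% and 12.8% of all tested genes. The authors' deposited table listed 5 of the 86, against 894 of the 14188 tested genes, so these genes were not listed more often. The median log2 fold change over the 86 was −0.20, and their median exon length was 7084 bp against 4893 bp over all tested genes.

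The gene that passed was IGF2BP2, which encodes an RNA-binding protein that binds IGF2 mRNA among others. It fell from 1464, 1475 and 1383 normalised counts with RSL3 to 775, 609 and 877 with RSL3+ID, and the groups did not overlap. The log2 fold change was −0.95 (SE 0.17, adjusted p = 0.0286 in limma), or 1.93-fold. The authors' deposited table gave −0.93 and an adjusted p of 0.000102. With any library but RSL3+ID library 2 left out, the adjusted p was between 0.0694 and 0.208, at log2 fold changes from −0.93 to −1.07, and it was 0.169 without the trended and robust step. It was −0.98 with the length and GC trend removed (adjusted p = 0.0172). Its paralogs IGF2BP3 and IGF2BP1 had log2 fold changes of −0.48 (adjusted p = 0.291) and 0.08 (adjusted p = 0.832). The median of these 3 genes was −0.48.

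Among 21 tested receptor adaptors and receptor inhibitors none passed in limma, and 9, or 42.9%, had an unadjusted p under 0.05, against 19.3% of all tested genes (6 positive, 15 negative, median log2 fold change −0.30). GAB2, a docking protein that binds the PI3K subunit p85, had 242, 192 and 208 normalised counts with RSL3 and 92.9, 139 and 74.1 with RSL3+ID, with no overlap. Its log2 fold change was −1.10 (SE 0.27, adjusted p = 0.0618 in limma), and it passed in the authors' deposited table (−1.07, adjusted p = 0.0120). GRB10, an adaptor that inhibits both IGF1R and INSR, stood at −0.49 on the log2 scale (adjusted p = 0.144). GRB2, which links receptors to RAS, had 0.38 (adjusted p = 0.135), with all RSL3+ID libraries above the RSL3 libraries.

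Of 27 tested genes of PI3K, AKT and mTOR none passed in limma, and 7, or 25.9%, had an unadjusted p under 0.05, near the 19.3% of all tested genes (8 positive, 19 negative, median log2 fold change −0.22). PIK3CB, a catalytic subunit of PI3K, had 300.2, 406 and 278 normalised counts with RSL3 and 174, 194 and 170.4 with RSL3+ID. The groups did not overlap. Its log2 fold change was −0.85 (adjusted p = 0.0686 in limma), and it passed in the authors' deposited table with an adjusted p of 0.0116. PIK3R3, a regulatory subunit of PI3K, stood at 0.52 on the log2 scale (adjusted p = 0.141), and it passed at 0.73 when RSL3+ID library 2 was left out (adjusted p = 0.00141). That setting called 9.34% of all tested genes, and PIK3R3 passed with no other library left out.

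Among 9 tested proteases of binding proteins and their partners none passed in limma, and 2, or 22.2%, had an unadjusted p under 0.05, near the 19.3% of all tested genes (3 positive, 6 negative, median log2 fold change −0.26). The stanniocalcins STC1 and STC2, which inhibit the IGFBP4 protease PAPPA, had estimates of opposite sign. STC2 had 11484, 9985 and 11325 normalised counts with RSL3 and 8495, 7601 and 8021 with RSL3+ID, with no overlap (log2 fold change −0.44, adjusted p = 0.0846). The authors' deposited table gave it an adjusted p of 0.0383. STC1 had 1991, 2124 and 1486 with RSL3 and 4186, 1451 and 4149 with RSL3+ID, where library 2 stood apart from its group. The log2 fold change of STC1 was 0.67 (SE 0.33, adjusted p = 0.288 in limma). Without RSL3+ID library 2 it was 1.17 and passed (adjusted p = 4.63e-05), where 9.34% of all tested genes were called. PAPPA itself, named here for its role after its values were seen, had at most 28.6 normalised counts (log2 fold change −1.18, SE 0.62, adjusted p = 0.321). IDE, a protease that degrades insulin, stood at −0.77 on the log2 scale (SE 0.26, adjusted p = 0.135).

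**Figure D5:**
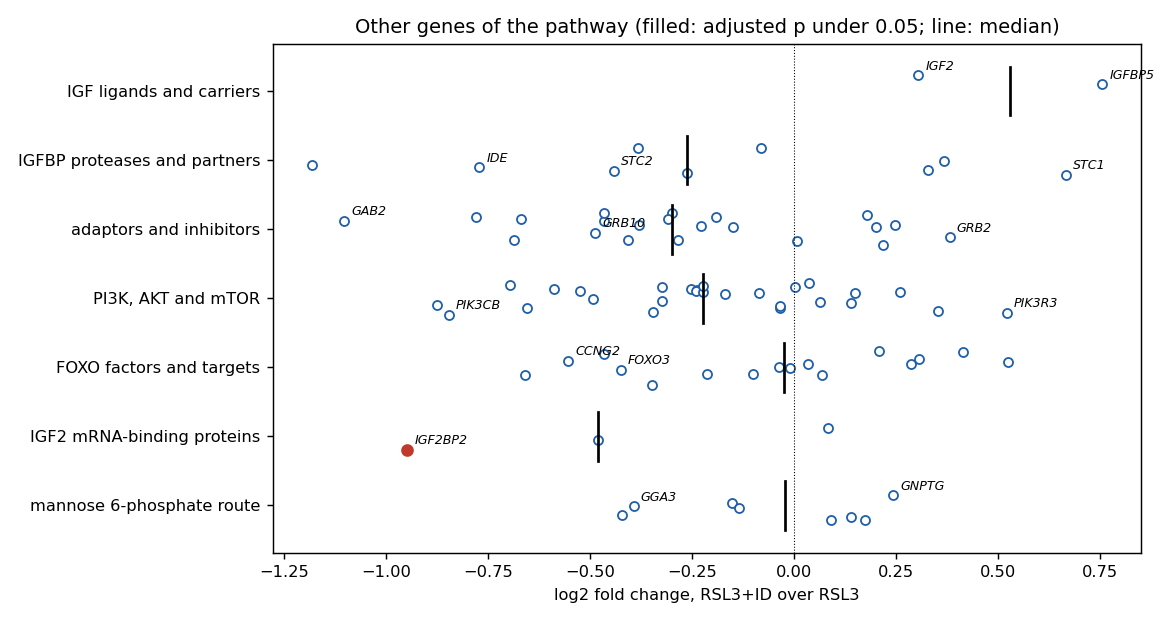
log2 fold change of RSL3+ID over RSL3 for 86 tested genes of 7 pathway lists, with a point per gene, a vertical line at each list's median and a filled point where the adjusted p in limma was under 0.05. IGF2BP2 at −0.95 is the filled point, and the medians of the adaptor and PI3K lists were −0.30 and −0.22.

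FOXO factors and genes they are known to induce were spread to both sides, with 7 positive and 9 negative estimates of 16 tested and a median log2 fold change of −0.02. None passed, and 3, or 18.8%, had an unadjusted p under 0.05, about the 19.3% of all tested genes. FOXO3, a widely expressed FOXO factor, had −0.43 (adjusted p = 0.184 in limma), CCNG2 (cyclin G2, an inhibitor of cell cycle progression) −0.55 (adjusted p = 0.184) and BCL6, a transcriptional repressor, −0.66 (adjusted p = 0.202). The mannose 6-phosphate route that IGF2R serves had 4 positive and 4 negative estimates of 8 tested, with a median of −0.02, and none reached an unadjusted p under 0.05. Its smallest p-values belonged to GGA3, a sorting adaptor for these receptors, with a log2 fold change of −0.39 (adjusted p = 0.342), to GNPTG at 0.24 (adjusted p = 0.404) and to GNPTAB at −0.42 (adjusted p = 0.509). The latter are subunits of the enzyme that makes the mannose 6-phosphate tag.

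The genes most like IGF1R over the 6 libraries, by Pearson correlation of log2 values, were WAC (0.990), FAXDC2 (0.990) and USP32 (0.988). These were picked from 14188 genes and share libraries and scaling with IGF1R. USP32, which encodes a deubiquitinase, was lower by 1.93-fold (adjusted p = 0.0405 in limma), whereas the estimate for WAC was 1.18-fold lower and did not pass (adjusted p = 0.357).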

How the data were processed

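RNA of 6 libraries (3 RSL3, 3 RSL3+ID) was sequenced after TRIzol extraction and NEBNext Ultra library preparation, per the labels' protocols. Trimmomatic 0.39, HISAT2 2.2.1, StringTie 2.1.5, DESeq2 1.30.0 and GRCh38 (hg38) are named in the submitters' processing notes. The sources used here name no counting tool, strand setting or annotation. Groups come from the treatment field. Columns were tied to groups by name: 3 hold RSL3 alone and 3 add a garbled word that reads as "drug given" in Chinese once repaired. They do not name single samples.

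The authors deposited log2 values with a shared minimum of 6.04, the form of DESeq2's variance-stabilising transform. It was inverted to counts divided by size factors (normalised counts), and for 894 genes their mean equalled, within 2.5e-14, the signal that the authors deposited as base mean in their table of changed genes. After division by each column's step, 100.0% of values lay within 0.001 of whole reads. The 214 repeated identifiers were dropped. The same table holds log2 fold changes, a score (the Wald statistic, not used) and p-values, deposited by the authors. Its smaller companion holds none of the 10 genes.

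Log2(normalised count + 1) was tested with limma 3.58.1 in R 4.3.3 (trended, robust, 2-sided, Benjamini-Hochberg over all genes with a mean normalised count of at least 10). Fold changes are on that scale, which understates low genes. Checked on simulated counts of 14188 genes, it recovered 88% of 100 genes changed by 1 on the log2 scale. Those counts had the same dispersion for every gene and neither an outlying library nor a length trend. The share recovered therefore need not hold for the libraries studied here. Exon lengths and gene positions are from GENCODE 29, promoters from RefSeq (9 of 10 genes matched). The genes, lists and tests were chosen with earlier results of these data known. The text names all 10 genes, list genes that passed, and the genes of smallest p in a list up to 3, except for a gene that is not reported here. The alternatives tried were a pseudocount of 0.5, a filter of 1, other scalings, the deposited log2 values, limma-voom on recovered reads, a plain empirical Bayes step, a replicate block, each library left out and, added after seeing the data, a length and GC trend removed.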

Additional observations from a re-analysis of the deposited data

How the results depend on the processing

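The log2 fold changes of IGFBP2, IGFBP4, IGFBP6, IGFBP7, IGF1R, IGF2R, IRS1 and IRS2 kept their direction in all 16 alternatives run. INSR turned to −0.026 with scaling to the total count, where the median of all genes was −0.11, and with 1 library left out it ran from −0.074 to 0.20. IGFBP3 ran from −0.030 to 0.56 with 1 library left out. IGF1R passed with the filter at a mean of 1 (log2 fold change −0.75, adjusted p = 0.0472) and ran from −0.90 to −0.63 with 1 library left out (adjusted p from 0.00801 to 0.329). Over the 16 alternatives the adjusted p of IRS1 was between 0.0545 and 0.284, and none of the 10 genes other than IGF1R passed in any of them.

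Genes called higher and lower over all genes were 90 and 217 with scaling to the total count, 241 higher with upper-quartile scaling, and 0 and 0 without the trended and robust step, where 2402 genes had an unadjusted p under 0.05. With 1 library left out they ran from 0 to 742 higher and from 0 to 583 lower, the largest counts being without RSL3+ID library 2. Pathway list genes called lower were 3 with the filter at 1 (GAB2 and IGF2BP2 among them), 3 with scaling to the total count (STC2 and IGF2BP2 among them), 0 without the trended and robust step, 2 with the length and GC trend removed, and 0 to 6 with 1 library left out, and those called higher 0 to 3. The cause of these shifts was not tested.

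Deviations from the group mean had Pearson correlations of −0.002, −0.246 and −0.180 between libraries with the same number in their column names. Between libraries with different numbers they ran from −0.186 to 0.307. Sample titles also put an RSL3 and an RSL3+ID sample under the same number. With 3 libraries per group these correlations cannot exclude pairs, and the main fit did not treat the libraries as pairs. With the replicate block 0 genes were higher and 0 lower over all genes (1993 at an unadjusted p under 0.05), and 0 pathway list genes were lower. The replicate block with the length and GC trend removed gave 1 higher and 7 lower, and 0 pathway list genes lower. Depth limits genes with few reads, and INS at 0 reads may lie anywhere up to 0.197 CPM.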
